A study of Rattus norvegicus with 23 samples.

Results

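RNA from the dorsal striatum of 6 always shock-resistant (ASR) rats was compared with that of 6 saline control (CT) rats, which together are 12 of the 23 libraries of the series. Membership followed the treatment labels, METH Shock Resistant for ASR and Control for CT, and no expression value decided it. The resistant label itself rests on drug intake measured under footshock. All animals were adult wild type male Long Evans rats, with 1 library per rat. ASR rats pressed a lever for intravenous methamphetamine (METH, 0.1 mg/kg per infusion) in 3 daily sessions of 3 h over 22 days, and then for 8 days with a 0.5-s footshock on 50% of rewarded presses, the current rising from 0.18 to 0.36 mA. They kept taking METH despite the shocks. A forced abstinence of 15 days, a further 12 days of METH and 3 days of footshock at 0.30 mA followed, and the same rats again kept taking the drug. Another forced abstinence of 15 days came next. Lever pressing with the drug cues but without drug was tested on days 1 and 15 of each abstinence. Tissue was taken the day after the last of these tests. CT rats had the same access to saline and received neither METH nor footshock. The comparison therefore contrasts drug, shock and the resistant behaviour together with none of them, and these cannot be told apart within it. The other 11 libraries came from METH rats that resisted only in the second footshock phase (delayed shock-resistant, DSR, 5 rats, labelled Resurgence METH Shock Resistant) or that cut their intake in both phases (always sensitive, AS, 6 rats, labelled METH Shock Sensitive).

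The dorsal striatum is the part of the basal ganglia in which actions become habits, and most of its neurons are GABAergic projection neurons that receive dopamine from the midbrain. METH releases dopamine there, and continued drug taking in the face of punishment is used in rats as a model of compulsive use. Messenger RNA in a piece of this tissue is a mixture over neurons, glia and blood vessels. In such bulk samples, fewer cells of a type and less RNA per cell cannot be told apart.

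The libraries held 18967015 to 23248971 counts in CT and 20946656 to 27767632 in ASR, and the ASR libraries were deeper on average (two-sided exact permutation p = 0.0476, n = 6 rats per group). The genes detected per library numbered 20024 to 20398 in CT and 19894 to 20773 in ASR. Rat codes begin with Grp7 or Grp8, which the labels do not define. They were treated here as cohorts 7 and 8, with 4 CT and 3 ASR rats in the first and 2 CT and 3 ASR rats in the second. The files name genes by Ensembl identifier, position and exon length on Rnor6.0, and 0 identifiers could be matched to a gene symbol. Genes are therefore described here by their position, and the tissue label could not be checked against marker genes. The limit also touches function: what the genes below do is not stated.

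The question was which genes differ in expression in the dorsal striatum of rats that took METH through both punishment phases. Among 16275 genes tested, the differences were few and small. The median log2 fold change was 0.0044 and the median of its absolute value was 0.078. With Benjamini-Hochberg adjustment over all genes, edgeR's quasi-likelihood test on all 4 groups called 0 genes at an adjusted p under 0.05 (0% of genes tested), and the smallest adjusted p was 0.949. At an unadjusted p under 0.05 there were 800 genes, or 4.92% of those tested, and a threshold of 0.05 by itself corresponds to 814. Of these, 370 were higher in ASR (2.27%) and 430 were lower (2.64%). DESeq2 on all 4 groups also called 0 genes, with a smallest adjusted p of 0.0626 and 866 genes at an unadjusted p under 0.05, and DESeq2 on only the CT and ASR rats called 15.

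The threshold in the main text of the study was a change of at least 1.5-fold with an unadjusted p under 0.05. Its supplement words the limit on size as a log fold change over 1.5. Genes that pass the main-text threshold are referred to as called. It was passed by 119 genes higher in ASR (0.731% of genes tested) and 72 lower (0.442%). The called genes were weakly expressed. Their median level over the 12 rats was 0.755 CPM (counts scaled to a common library size) for the higher and 0.820 CPM for the lower ones, against 17.9 CPM for all genes tested. The median log2 fold change was 0.84 among those higher and -0.77 among those lower. Of the 191 called genes, 35 had a mean of 10 counts or fewer per library. Fold changes were larger at low levels over all genes tested, called or not. With 4 equal classes by mean CPM, the median absolute log2 fold change was 0.205 in the lowest class and 0.052 in the highest. A limit of 1.5-fold therefore favours weakly expressed genes.

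**Figure D1:**
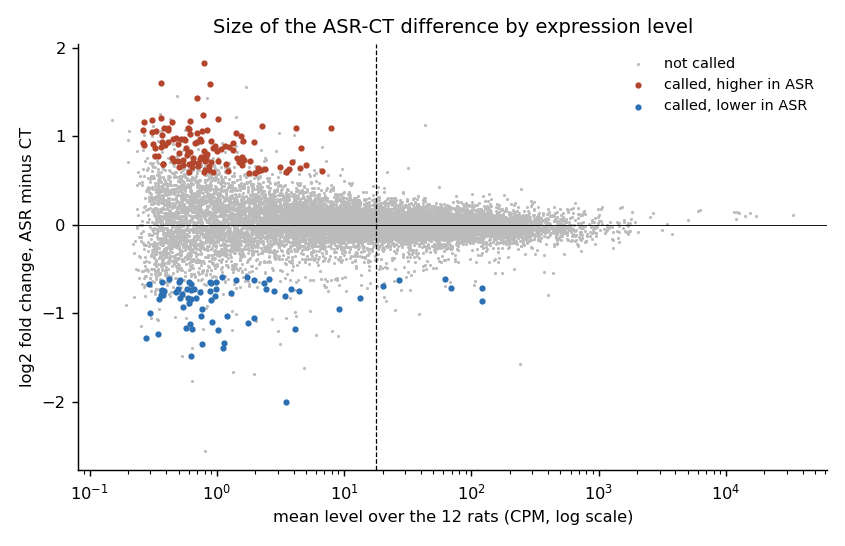
Each point is 1 of the 16275 genes tested, with its mean level over the 12 CT and ASR rats on the x axis (CPM, log scale) and the log2 fold change of ASR minus CT on the y axis. Red points are the 119 genes called higher and blue points the 72 called lower; the dashed line marks the median level of 17.9 CPM, to the right of which 6 called genes lie, all below 0.

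The direction of the differences changed with expression level. When the genes were divided into 4 level classes of equal size by mean CPM, the lowest class (up to 3.75 CPM) held 167 genes that were higher in ASR and 93 that were lower at an unadjusted p under 0.05. In the second class there were 101 higher and 56 lower. The third class had 78 higher and 104 lower. Among the most strongly expressed genes, above 52.7 CPM, 24 were higher and 177 were lower. From the lowest to the highest class, genes at this threshold were 6.39%, 3.86%, 4.47% and 4.94% of those tested. Over all genes the share was 4.92%, so the highest class differed in direction and not in share. Among genes above the median level, 281 of the 383 genes with an unadjusted p under 0.05 were thus lower in ASR, or 73.4%, against 53.8% among all 800. These shifts were small, with a median log2 fold change of -0.16 over the 281 genes, and 6 of the 281 reached 1.5-fold. Genes are not independent of one another, and no test was made of this split.

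The share also differed between rats coded Grp7 and Grp8. In cohort 7 alone, 206 genes above the median level were lower and 99 were higher at an unadjusted p under 0.05, whereas cohort 8 alone gave 99 lower and 101 higher. With the CT rat Grp7-R5 left out, genes above the median level gave 443 lower and 241 higher, and the total over all levels rose from 800 to 1276. Equalising depth by thinning every library to the same total left 289 lower and 107 higher.

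**Figure D2:**
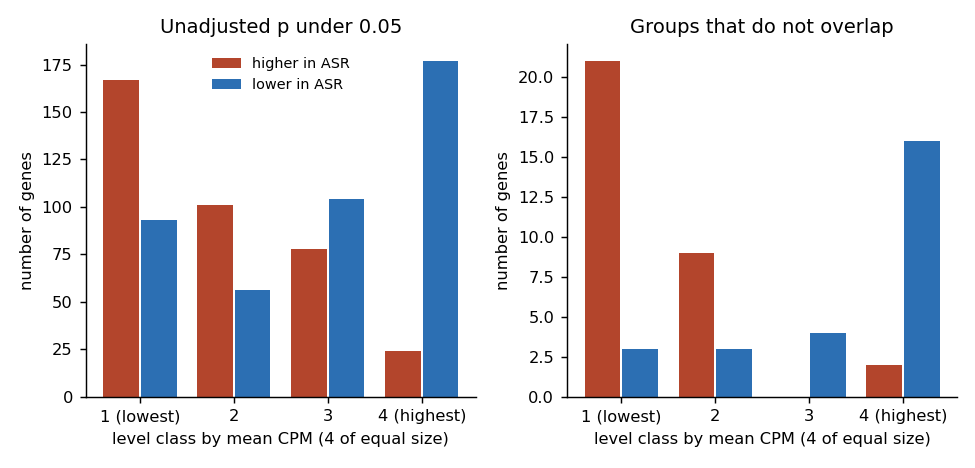
Bars give the number of genes in each of 4 level classes of the 16275 genes by mean CPM, red for higher and blue for lower in ASR. The left panel counts genes with an unadjusted p under 0.05, from 167 higher and 93 lower in the lowest class to 24 higher and 177 lower in the highest; the right panel counts genes for which the 6 ASR and the 6 CT rats did not overlap.

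Gene length went with the direction as well. Above the median level, 113 of the 125 genes with a span under 10 kb and an unadjusted p under 0.05 were lower in ASR, that is 90.4%. This share was 72.2% for spans of 10 to 50 kb and 58.8% for 50 to 100 kb. Above 100 kb it was 42.1%, with 16 lower and 22 higher genes. The median log2 fold change over all well-expressed genes under 10 kb was nevertheless only -0.019, and over those above 100 kb it was -0.0080. Genes with an unadjusted p under 0.05 were 6.25% of those under 10 kb, then 4.50%, 4.08% and 3.36% with rising span. The share over all genes above the median level was 4.71%. The split by length was not tested and was not examined within each cohort.

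Called genes were found on all 20 autosomes and on the X chromosome. At an unadjusted p under 0.05, against 4.92% over all genes (370 higher, 430 lower), chromosome 7 had the highest share with 7.45% of 1033 genes (26 higher, 51 lower). On the X chromosome the share was 5.46% (23 higher, 7 lower), on chromosome 13 it was 4.91% (19 higher, 6 lower) and on chromosome 12 it was 4.08% (3 higher, 19 lower). On the mitochondrial chromosome, 25 of the 30 genes tested had a positive log2 fold change, with a median of 0.15, but 0 of them had an unadjusted p under 0.05. Mitochondrial genes took 11.6% to 13.4% of counts in CT and 11.7% to 15.9% in ASR, so the groups overlapped.

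In each direction, the 2 called genes with the smallest p and a mean of at least 10 counts are given by identifier. ENSRNOG00000006151 (chr4:109467272-109470510, 6 exons, 781 exonic bases) had 0.348 to 0.648 CPM in the CT rats, with a median of 0.575, and 0.596 to 1.92 CPM in the ASR rats, with a median of 1.06. These levels rested on 8 to 15 counts per CT library and 14 to 39 per ASR library. A single ASR rat, Grp8-R4, lay within the CT range. The log2 fold change was 1.07 (SE 0.24, unadjusted p = 0.000208, adjusted p = 0.949 by edgeR; two-sided exact permutation p = 0.00649 over 6 against 6 rats). Its level was similar in the AS rats, where the log2 difference of ASR minus AS was -0.02 (SE 0.23), and ASR minus DSR was 0.40 (SE 0.24).

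ENSRNOG00000024952 (chr18:60013382-60095354, 27 exons) was the other higher gene. It had 0.185 to 0.508 CPM in CT, with a median of 0.360, and 0.523 to 1.13 CPM in ASR, with a median of 0.893. Every ASR rat was above every CT rat, although the closest rats had 11 and 14 counts. The log2 fold change was 1.17 (SE 0.27, unadjusted p = 0.000212, adjusted p = 0.949 by edgeR), and the two-sided exact permutation p of 0.00216 is the smallest that 6 against 6 rats allow. On average the DSR and AS rats lay between the groups, at 0.64 (SE 0.28) and 0.66 (SE 0.28) above CT on the log2 scale.

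ENSRNOG00000002469 (chr10:34185898-34199279, 7 exons) was lower in ASR. CT rats had 2.55 to 3.80 CPM, with a median of 2.83, and ASR rats had 1.05 to 2.85 CPM, with a median of 1.60. A single ASR rat, again Grp8-R4 with 2.85 CPM, lay within the CT range. The log2 fold change was -0.73 (SE 0.19, unadjusted p = 0.00108, adjusted p = 0.949 by edgeR; two-sided exact permutation p = 0.0108). The cohorts differed in size here, with -1.29 (SE 0.23) in cohort 7 and -0.15 (SE 0.26) in cohort 8, and this difference between cohorts was not tested. The other METH groups were also below CT, with log2 differences of -0.58 (SE 0.20) for DSR and -0.56 (SE 0.19) for AS. ASR minus DSR was -0.14 (SE 0.21) and ASR minus AS was -0.16 (SE 0.20).

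ENSRNOG00000047800 (chr1:78186776-78195328, 2 exons) had 1.47 to 2.55 CPM in CT, with a median of 2.18, and 1.02 to 1.82 CPM in ASR, with a median of 1.33. The ranges overlapped, and 2 of the 6 ASR rats lay above the lowest CT rat. Its log2 fold change was -0.59 (SE 0.16, unadjusted p = 0.00146, adjusted p = 0.949 by edgeR; two-sided exact permutation p = 0.00866). Both other METH groups were 0.20 below CT on the log2 scale (SE 0.17 for DSR and 0.16 for AS), and ASR was 0.39 below DSR (log2 difference -0.39, SE 0.17).

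**Figure D3:**
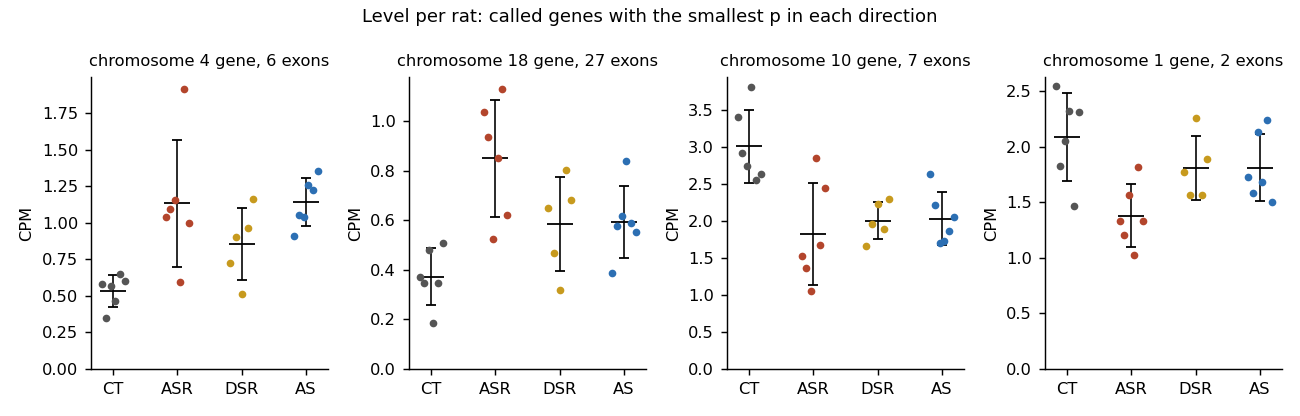
Level in every rat (CPM, y axis from 0) of the 2 called genes with the smallest p in each direction and a mean of at least 10 counts, in the order ENSRNOG00000006151, ENSRNOG00000024952, ENSRNOG00000002469 and ENSRNOG00000047800, for CT (6 rats), ASR (6), DSR (5) and AS (6). Points are rats and bars are the mean ± SD; only in the second panel do CT (at most 0.508) and ASR (at least 0.523) not overlap.

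Well-expressed genes were rare among those called. Just 6 of the 191 were above the median level, and all 6 were lower in ASR (6 of the 8137 genes above it, against 0 higher). They are named by position and were singled out after their values were seen. The most strongly expressed without an overlapping neighbour was the 3-exon gene at chr7:115907097-115910541. It had 60.4 to 228 CPM in CT, with a median of 174, and 49.7 to 114 CPM in ASR, with a median of 91.0. Its log2 fold change was -0.86 (SE 0.28, unadjusted p = 0.00486, adjusted p = 0.949 by edgeR; two-sided exact permutation p = 0.0455). The groups overlapped through the CT rats Grp7-R6 (60.4 CPM) and Grp8-L11 (103 CPM), while the other 4 CT rats were above every ASR rat.

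The same CT rats were low in others of these genes. At chr19:26092974-26094756, a gene of 1 exon, CT rats had 50.4 to 98.0 CPM and ASR rats 37.0 to 63.0 CPM. Its log2 fold change was -0.61 (SE 0.18, unadjusted p = 0.00280, adjusted p = 0.949 by edgeR; two-sided exact permutation p = 0.0152), and CT rats Grp7-R6 and Grp8-L11 were the pair within the ASR range. The 8-exon gene at chr7:142905758-142920216 had 38.2 to 109 CPM in CT and 30.8 to 72.5 CPM in ASR (log2 fold change -0.72, SE 0.25; two-sided exact permutation p = 0.0563). A further 1-exon gene, at chr4:168752133-168755023, had 10.7 to 35.1 CPM in CT and 11.2 to 22.4 CPM in ASR (log2 fold change -0.69, SE 0.24; two-sided exact permutation p = 0.0736). Counted over all 6 genes, Grp7-R6 and Grp8-L11 were each at or below the highest ASR rat in 5, and each of the other 4 CT rats in 1. Leaving out Grp7-R6 moved the log2 fold change of the chr7:115907097-115910541 gene to -1.03, and leaving out Grp8-R11 moved it to -0.73.

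The remaining pair behaved differently. For the 6-exon gene at chr1:89474601-89483988, CT rats had 25.2 to 39.5 CPM and ASR rats 15.3 to 30.9 CPM, with a log2 fold change of -0.62 (SE 0.29, unadjusted p = 0.0421, adjusted p = 0.949 by edgeR; two-sided exact permutation p = 0.0130). Its unadjusted p rose above 0.05 in 8 of the 12 fits that left out 1 rat, up to 0.0908. The gene at chr14:46523594-46529375, which overlaps 3 other genes, had 73.6 to 354 CPM in CT and 71.4 to 140 CPM in ASR. Its log2 fold change of -0.72 (SE 0.32; two-sided exact permutation p = 0.284) rested on 1 CT rat, Grp7-L7, and was -0.26 without it (unadjusted p = 0.312). In cohort 8 alone it was 0.11.

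The other METH groups were also below CT on average in the chr7:115907097-115910541 gene. DSR rats had 69.8, 136, 140, 60.6 and 149 CPM, and AS rats had 65.4 to 121 CPM. ASR differed from DSR by -0.38 (SE 0.29) and from AS by -0.18 (SE 0.28) on the log2 scale, both within 2 SE of 0.

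**Figure D4:**
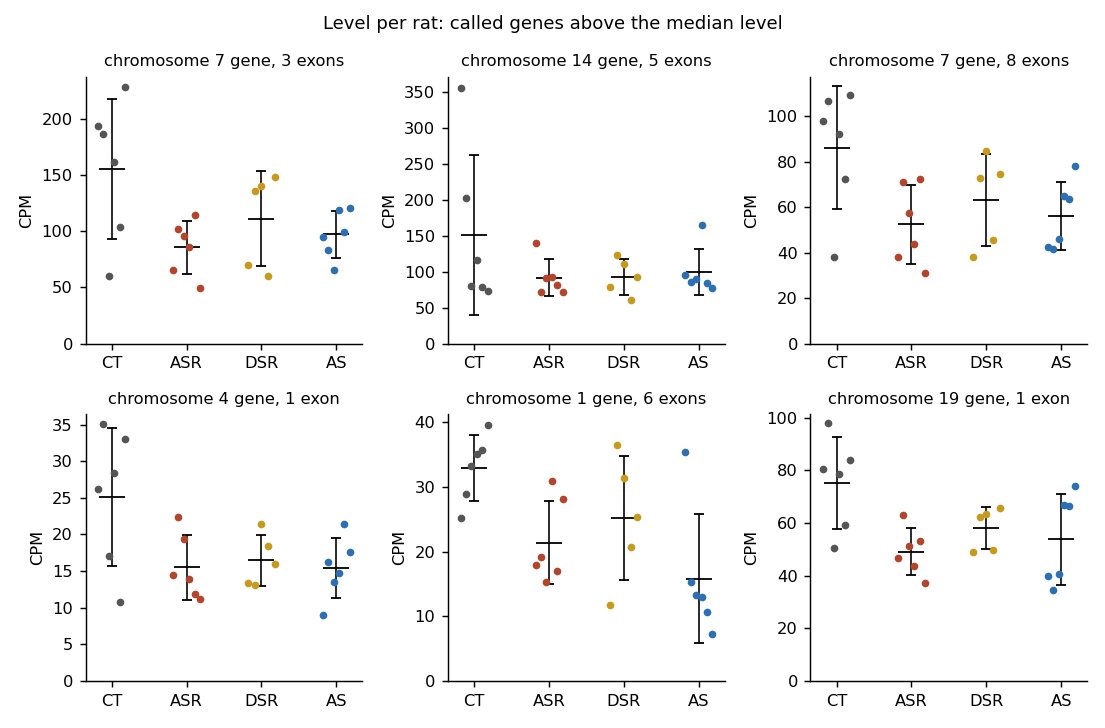
Level in every rat (CPM, y axis from 0) of the 6 called genes above the median level, in CT (6 rats), ASR (6), DSR (5) and AS (6). Points are rats and bars are the mean ± SD. In each panel the CT mean is above the ASR mean, and in each the 2 groups overlap; the chromosome 14 panel shows the single CT rat at 354 CPM.

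Groups that did not overlap were seen for 58 genes. Every ASR rat was above every CT rat for 32 genes (0.197% of genes tested), and below for 26 (0.16%). The direction again went with level. The 32 higher genes had a median level of 1.84 CPM and a median log2 fold change of 0.65, and 19 of them reached 1.5-fold. The 26 lower genes had a median level of 66.1 CPM and a median log2 fold change of -0.20, and 3 reached 1.5-fold. The smallest unadjusted p of the whole comparison, 9.20e-05, belonged to a lower gene of this kind at chr17:9830332-9839452 (10 exons), singled out after its values were seen. It had 85.4 to 92.6 CPM in CT and 71.6 to 84.6 CPM in ASR, a log2 fold change of -0.21 (SE 0.044).

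DESeq2 on only the 12 CT and ASR rats called 15 of 16239 genes with an adjusted p (0.0924%), 8 higher and 7 lower in ASR. Of the 15, 12 had groups that did not overlap, against 0.197% (higher) and 0.16% (lower) of all genes tested. The 15 were picked on these same rats, so neither this separation nor a permutation p on these rats is further evidence. In edgeR's fit on all 4 groups the adjusted p of these 15 genes was 0.949. DESeq2 on all 4 groups called 0 genes, with a smallest adjusted p of 0.0626. The lead was a 5-exon gene at chr10:29191623-29196563. CT rats had 2.08 to 3.11 CPM, with a median of 2.74, and ASR rats 4.82 to 6.86 CPM, with a median of 5.61. The log2 fold change was 1.09 (SE 0.15, DESeq2 adjusted p = 2.63e-09). edgeR on the same 12 rats gave an adjusted p of 0.0299 for it and for no other gene (1 of 15610, 0.00641%), and the two-sided exact permutation p was 0.00216. With counts thinned to equal depth, edgeR on these rats gave 0 genes at an adjusted p under 0.05 and 811 at an unadjusted p under 0.05. There the log2 fold change of this gene was 1.10 and its adjusted p was 0.0540.

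Next came a 4-exon gene at chr1:198483805-198486157, with 2.77 to 4.17 CPM in CT and 5.21 to 7.10 CPM in ASR (log2 fold change 0.87, SE 0.14, DESeq2 adjusted p = 1.58e-06). A called gene less than 250 kb from it, at chr1:198572999-198577226, was also higher, with 0.903 to 1.44 CPM in CT and 1.52 to 3.03 CPM in ASR. For the 5-exon gene at chr2:227080924-227083501 the levels were 3.71 to 8.34 CPM in CT and 8.29 to 18.7 CPM in ASR, and the CT rat Grp7-R5 lay just above the lowest ASR rat. The other 5 higher genes had ASR minus CT log2 differences within the range of 0.48 to 1.09 set by the 8.

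Among the 7 lower genes, the 4-exon gene at chr5:157524513-157535664 had 122 to 151 CPM in CT and 95.0 to 115 CPM in ASR (log2 fold change -0.35, SE 0.067, DESeq2 adjusted p = 0.00117). The groups did not overlap. The 2-exon gene at chr10:83328410-83332851 had 37.3 to 50.6 CPM in CT and 16.5 to 32.8 CPM in ASR (log2 fold change -0.74, SE 0.15, DESeq2 adjusted p = 0.00352). Its unadjusted p was 0.0669 in edgeR's fit on all 4 groups, so that it was not among the called genes. The most strongly expressed of the 7, at chr3:2262253-2270995, had 476 to 538 CPM in CT and 403 to 463 CPM in ASR, a log2 fold change of -0.22 (SE 0.052).

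The 15 genes divided the other METH rats rat by rat. DSR rats had 3.11, 2.62, 2.26, 8.19 and 5.66 CPM of the chr10:29191623-29196563 gene, so that 3 were near the CT rats and 2 at the level of the ASR rats. In AS, 1 rat had 2.81 CPM and the other 5 had 5.66 to 8.73 CPM. The chr1:198483805-198486157 gene placed the same rats on the same sides, with 2.82, 2.11 and 2.70 CPM in the low DSR rats and 9.87 and 7.31 CPM in the high ones. Over the 8 higher genes, DSR rats Grp7-R7 and Grp8-L4 and AS rat Grp7-L10 were at or below the highest CT rat in all 8, and DSR rat Grp7-L2 in 6. DSR rats Grp8-L9 and Grp8-R1 were at or above the lowest ASR rat in 7 of the 8, and the remaining 5 AS rats in 7 or 8.

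The lower genes gave the same division for most rats. DSR rat Grp7-R7 was at or above the lowest CT rat in 7 of the 7 lower genes and AS rat Grp7-L10 in 6. DSR rat Grp7-L2 departed most, at or below the highest ASR rat in all 7 while it was within the CT range or below for 6 of the 8 higher genes. Less clear were DSR rats Grp8-L4 and Grp8-R1. Grp8-L4 was at or above the lowest CT rat in 4 of the 7 lower genes. Grp8-R1 was at or below the highest ASR rat in 5 and at or above the lowest CT rat in 2. The spread inside DSR and AS was accordingly wide: the chr10:29191623-29196563 gene had 2.68 ± 0.410 CPM in CT and 5.72 ± 0.845 CPM in ASR (mean ± SD, n = 6 each), but 4.37 ± 2.52 CPM in DSR (n = 5) and 6.08 ± 1.98 CPM in AS (n = 6). In the fit on all 4 groups its log2 difference from CT was 1.09 (SE 0.27) for ASR, 0.70 (SE 0.28) for DSR and 1.18 (SE 0.27) for AS, comparisons that share the CT rats. ASR minus DSR was 0.39 (SE 0.27) and ASR minus AS was -0.08 (SE 0.26). Counts against the highest ASR rat do not show how far below it a rat lay. Among the 7 lower genes, ASR minus AS ranged from -0.06 (SE 0.11) at chr5:157524513-157535664 to 0.56 (SE 0.39) at chr10:83328410-83332851. In the latter gene the AS median was 11.9 CPM, below the lowest ASR rat at 16.5 CPM.

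**Figure D5:**
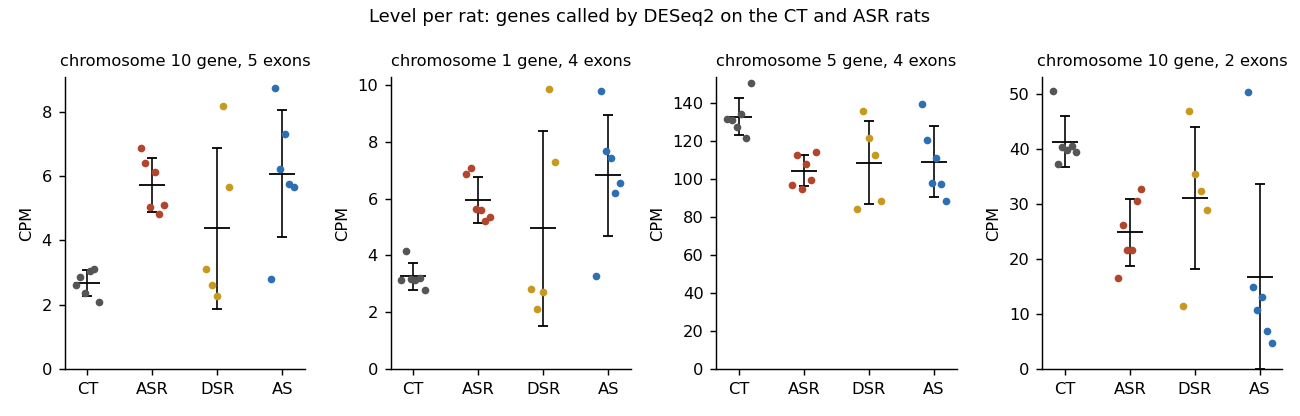
Level in every rat (CPM, y axis from 0) of 2 higher and 2 lower genes called by DESeq2 on the CT and ASR rats, in CT (6 rats), ASR (6), DSR (5) and AS (6). Points are rats and bars are the mean ± SD. CT and ASR do not overlap in any of the 4 panels. In the first and second panels DSR and AS rats lie at both levels, with the AS rat at 2.81 CPM in the first and 3.28 CPM in the second. In the last panel the AS median of 11.9 CPM is below the lowest ASR rat at 16.5 CPM.

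The extremes of fold change were less secure. The highest log2 fold change among called genes, 1.82 (SE 0.75), was that of a 3-exon gene at chr3:123117492-123119460. One ASR rat, Grp7-L4, had 5.27 CPM of it, and the other 5 had 0.128 to 0.639 CPM against 0.0924 to 0.744 CPM in CT. Without that rat the log2 fold change was 0.25 (unadjusted p = 0.676). The lowest, -2.01 (SE 0.59), was that of a 1-exon gene at chr20:4877324-4879779, whose span overlaps 4 other genes. CT rats had 0.523 to 12.1 CPM and ASR rats 0.593 to 2.76 CPM, so that the groups overlapped (two-sided exact permutation p = 0.0606, n = 6 per group). Leaving out 1 rat at a time kept it between -2.34 and -1.62.

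Called genes lay within 250 kb of another called gene in 10 places, which held 23 of the 191. The number for 191 genes drawn from all genes tested was not computed, so no clustering can be read from this. In 6 of the 10 all genes had the same direction. The longest was on chromosome 14, where 4 genes from chr14:46329996-46330044 to chr14:46653040-46657975 were lower in ASR, with log2 fold changes from -1.11 to -0.72. Of the 4, 3 overlapped other genes, 2 were 49 bases long, and the CT rat Grp7-L7 was highest in each. The counting was not stated to use strand, so reads of overlapping genes could not be assigned to one of them with certainty.

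The rats coded Grp7 and those coded Grp8, taken as cohorts, were also read separately, and no rat is in both. Genes at least 1.5-fold changed with an unadjusted p under 0.05 numbered 260 of 16540 in cohort 7 (1.57%) and 220 of 16453 in cohort 8 (1.34%). Of the 152 genes that were higher in cohort 7 and tested in both cohorts, 95 had the same sign in cohort 8 (62.5%), where their median log2 fold change was 0.18 against 0.95 in cohort 7. Of the 89 lower genes, 56 kept their sign (62.9%), with a median of -0.14 against -1.07. In the opposite direction, 87 of 139 genes higher in cohort 8 (62.6%) and 48 of 70 lower (68.6%) had the same sign in cohort 7. Over all 16266 genes tested in both, the sign was the same for 59.1%.

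Of the 16266 genes tested in both cohorts, 8 passed the threshold in both with the same sign, 6 higher and 2 lower. The chr10:29191623-29196563 gene was one of them, with a log2 fold change of 1.16 (SE 0.29) in cohort 7 and 1.04 (SE 0.44) in cohort 8. Another was the chr2:227080924-227083501 gene, with 1.26 (SE 0.37) and 0.93 (SE 0.25). A long gene at chr2:170221245-170301348 (49 exons) had 0.77 (SE 0.28) and 0.70 (SE 0.29), at 1.26 to 1.58 CPM in CT and 2.03 to 2.57 CPM in ASR. The lower ones were at chr1:165295847-165330322, with -0.88 (SE 0.39) and -0.67 (SE 0.29), and at chr7:138459504-138512952, with -0.71 (SE 0.31) and -1.45 (SE 0.50). These 8 were singled out by this count after their values were seen. How many genes the 2 separate shares of 1.57% and 1.34% would give in both cohorts was not computed, so 8 cannot be called few or many.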

How the data were processed

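The authors converted reads with bcl2fastq 2.17, cut adapters with Trimmomatic 0.36, aligned to Rnor6.0 using STAR 2.5.2b and counted unique reads in exons with featureCounts (Subread 1.5.2). The deposited values are raw counts for 32552 genes; poly(A) RNA was sequenced. Computed here were TMM factors, CPM and log2 fold changes (R 4.3.3, edgeR 4.0.16; filterByExpr, minimum count 10, minimum total 15). All 4 groups entered one quasi-likelihood fit with the contrast ASR minus CT and Benjamini-Hochberg adjustment; the fit was tested on simulated data. Exact permutation tests of single genes were two-sided and used log2 CPM (prior count 2). DESeq2 1.42.0 was an alternative. Identifiers printed are the 2 higher and 2 lower with the smallest p among called genes with a mean of at least 10 counts. Rats and comparison were chosen with earlier results of these data known. Depth per library, 18967015 counts or more, limits the precision of genes near 1 CPM, and counting error is additional to differences between rats. The gene and marker lists, which need symbols, were not analysed here.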

Additional observations from a re-analysis of the deposited data

Results flagged for a closer look

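Of 62 sets of 6 values checked for a sample far from the rest (the shown genes and 4 library measures, in CT and in ASR), 8 had one. About 3.1 would be flagged by chance if the sets were independent and unselected. They share rats and the genes were chosen from these values, so the 8 cannot be read as an excess. Genes detected were 20398 in CT rat Grp7-R6 and at most 20122 in the other CT rats. CT rat Grp7-R5 had 4.17 CPM of the chr1:198483805-198486157 gene (next 3.2) and 8.34 CPM of the chr2:227080924-227083501 gene (others at most 5.22). CT rat Grp7-L7 had 50.6 CPM of the chr10:83328410-83332851 gene, above 40.5 CPM in the next rat. ASR rat Grp7-L4 stood high in 3 genes: 18.7 CPM at chr2:227080924-227083501 (others at most 9.70), 139.9 CPM at chr14:46523594-46529375 (others at most 93.0) and 5.27 CPM at chr3:123117492-123119460 (others at most 0.639). ASR rat Grp7-R10 had 1.42 CPM at chr1:165295847-165330322, with 2.08 CPM or more in the other ASR rats.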

How the results depend on the processing

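A set of 27 genes was followed, not all of them described singly above. It held the genes printed by identifier, those called by DESeq2 on the CT and ASR rats, the called genes above the median level and the 2 extremes of fold change. Other genes described above were not in it. The 27 kept direction and side of an unadjusted p of 0.05 in 255 of 294 values under the alternatives other than leaving out a rat. In 1 value the direction reversed: the chr14:46523594-46529375 gene, at 0.11 in cohort 8 alone. Leaving out each rat kept 303 of 324. The 800 genes at an unadjusted p under 0.05 became 1223 with no filter on low counts, 506 in cohort 8 alone and 560 to 1276 with 1 rat left out, the highest without CT rat Grp7-R5. Without the filter, 363 genes were called higher and 294 lower; DESeq2 on only the 2 groups without the filter, chosen after seeing the data, gave 182 and 160. With a log2 fold change over 1.5 as the limit, which is 1 reading of the study's supplement, 3 were higher and 1 lower. With 1 rat left out, 95 to 170 were higher and 57 to 89 lower. The 0 genes at an adjusted p under 0.05 became 15 with DESeq2 on only the 2 groups (15 also without the filter) and 1 when edgeR was fitted to the 12 rats alone (0 after thinning to equal depth), and were 0 in each fit with 1 rat left out. The cause was not tested. Thinning to equal depth was also added after seeing the data. No paired analysis was possible because the CT and ASR rats have no code in common.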
